A study of Homo sapiens with 42 samples.

Results

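The 57 genes of distal chromosome 15 described here run from MYO5A, which starts at position 52307283, to PCSK6, which ends at position 101525202 of human chromosome 15 (GRCh38, GENCODE annotation). They were chosen by their measured values: they were picked because line 12 of the neil1 genotype was lower there than wild type, in media and with BSO. That comparison is therefore given as a description with no test. The 57 genes are part of 20515 named genes in the deposited table, and all 57 had a mean of 10 or more normalised reads, as did 14331 genes in all.

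The cells were HAP1, a near-haploid human line that came from a myeloid leukaemia and grows attached. The genotypes were neil1, neil2, neil3 and neil123, labelled as deficient in the NEIL DNA glycosylases, which remove oxidised bases from DNA, and wt. Each genotype was kept in media alone or given 200 µM BSO over 48 h, starting at 4 h. BSO (buthionine sulfoximine) blocks the synthesis of glutathione. Per treatment there were 3 libraries of neil1 (1 of line 12 and 2 of line 13), 3 of neil2 (2 of line 11 and 1 of line 12), 4 of neil3 and 4 of neil123 (2 each of lines 1 and 2), and 7 of wt (3 named 1.1, 3 named 1.3 and 1 named p1). Lines were read from the replicate names, and what separates the lines was not given in the sources used here. Library names of neil3 and neil123 end in a letter, as do 4 of the wt libraries per treatment, and those of neil1, neil2 and the other 3 wt libraries do not. Each line was compared with wt of its own label set. The wt names 1.1 and 1.3 occur in both label sets, and each wt library was taken as separate. The titles call all libraries biological replicates except the unlettered wt ones, whose titles say nothing of it, and no label says whether libraries came from separate cultures. So p-values measure only the spread between these libraries, which may be technical.

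HAP1 cells are known to carry a long stretch of chromosome 15, from about 61 to 90 Mb, in an extra copy that sits on another chromosome, while most of the genome is present once. RNA levels of most genes follow the number of gene copies, so a gained or lost stretch is often seen as a shift of neighbouring genes together. The outer limits of the stretch are rounded and come from general knowledge of the line, since no copy number was measured here. By gene start, 14 of the 57 genes lay before 61 Mb, 25 between 61 and 90 Mb and 18 beyond 90 Mb. NEIL1, the gene targeted in neil1 cells, lies inside the stretch and overlaps MAN2C1, which codes for a cytosolic alpha-mannosidase.

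NEIL1 RNA did not separate the neil1 libraries from wt. In media it was 284.4 normalised reads in neil1 line 12 and 361.4 and 512.5 in neil1 line 13, against 309.6, 402.9 and 352.9 in wt of the same label set. With BSO it was 289.3 in neil1 line 12 and 347.5 and 541 in neil1 line 13, against 297.9, 380.6 and 293.2 in wt. In the neil123 libraries it ran from 842 to 1072 in media, against 774 to 975 in wt of the lettered set. A targeted change that leaves the transcript in place would not be seen in such counts. Depth in named genes was 29.9 to 30.7 M reads in the unlettered libraries and 26.8 to 28.7 M in the lettered ones. Of the blood cell markers, PTPRC was at 0 in 23 of 42 libraries and reached 2.92 normalised reads, CD33 was at 0 in 3 and reached 8.91, and SPI1 and HBG1 were not in the table. Of the endothelial markers, PECAM1 was at 0 in 30 libraries and CDH5 in 33. Of the epithelial markers, EPCAM ran from 3.05 to 258.2 and was at 0 in no library, CDH1 was at 0 in 20, and KRT5 was not in the table. Their sum was 148.8 and 177.4 in neil1 line 12 and ran from 3.05 to 265.7 over all libraries. Of the fibroblast markers, COL1A1, a fibrillar collagen, ran from 510.2 to 2650, COL1A2 was at 0 in 20 libraries, and DCN was not in the table. Their sum was 2259 and 2655 in neil1 line 12, which holds the highest of all libraries, and the lowest of all was 511.1. The part of these markers in the values of line 12 was not tested.

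The label sets differed in some of the genes themselves. In wt in media, the lettered libraries stood more than 0.5 log2 from the unlettered ones in 4 of the 57 genes. MAN2C1 was 1.05 log2 higher in the lettered wt libraries, MAN2A2, a Golgi mannosidase, 0.89 higher, and PARP6, an ADP-ribosyltransferase, 0.88 higher. VPS13C, a lipid transfer protein of endosomes, was 0.59 lower. Of the 57 genes, 21 overlap another protein-coding gene, and the strand setting of the counting was not given in the sources used here, so reads of such pairs cannot be told apart. ANXA2, MORF4L1 and UBE2Q2 have pseudogene copies that could share reads with them.

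The genes were read at widely different depths, from a mean of 95.2 normalised reads for VPS33B to 99368 for PKM, with no correction for transcript length. The 4 with the most reads in each segment had the following ranges over the 42 libraries. Before 61 Mb, ANXA2 ran from 24382 to 42731 normalised reads, SLTM, a nuclear protein with an RNA recognition motif, from 3639 to 4819, TCF12 from 2747 to 3972, and MYO5A from 2289 to 4395. Inside the stretch, PKM ran from 85459 to 117984, MORF4L1, a chromodomain protein, from 13763 to 21998, TPM1 from 8612 to 19253, and PPIB from 6198 to 11346. Beyond 90 Mb, IQGAP1, a scaffold of actin and signalling proteins, ran from 7608 to 11192, SNRPA1, a component of the U2 small nuclear RNP, from 1850 to 3347, CHD2 from 1686 to 2987, and FURIN from 1865 to 2561. Among these 12, TPM1 had the widest range relative to its lowest library and SLTM the narrowest range.

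In neil1 line 12 the genes of distal chromosome 15 stood below wt as a group, more so on either side of the extra-copy stretch than inside it. The median log2 difference from wt over the 57 genes was -0.17 in media and -0.15 with BSO, where the median over all tested genes was 0.025 and 0.013. Before 61 Mb the median of the 14 genes was -0.27 in media and -0.21 with BSO. Inside the stretch the median of the 25 genes was -0.089 and -0.079. Beyond 90 Mb the median of the 18 genes was -0.20 and -0.21. On a linear scale the medians amount to 0.828 and 0.867 of the wt level before 61 Mb, 0.940 and 0.947 inside the stretch, and 0.871 and 0.865 beyond 90 Mb, in media and with BSO. In bulk RNA, fewer cells with a given level and less RNA per cell cannot be told apart. Of the 57 genes, 47 were below wt in media and 52 with BSO, where 45.2% and 46.4% of all tested genes were, and 45 were below wt in both treatments. A difference of 0.2 log2 or more below wt was reached by 25 of the 57 genes in media and 21 with BSO, where 20.2% and 15.6% of all tested genes reached it. The line 12 library was below every wt library of its label set in 40 genes in media and 42 with BSO, where 27.4% and 27.9% of all tested genes were. Since the genes were chosen on these differences, nothing is read from their shares.

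**Figure D1:**
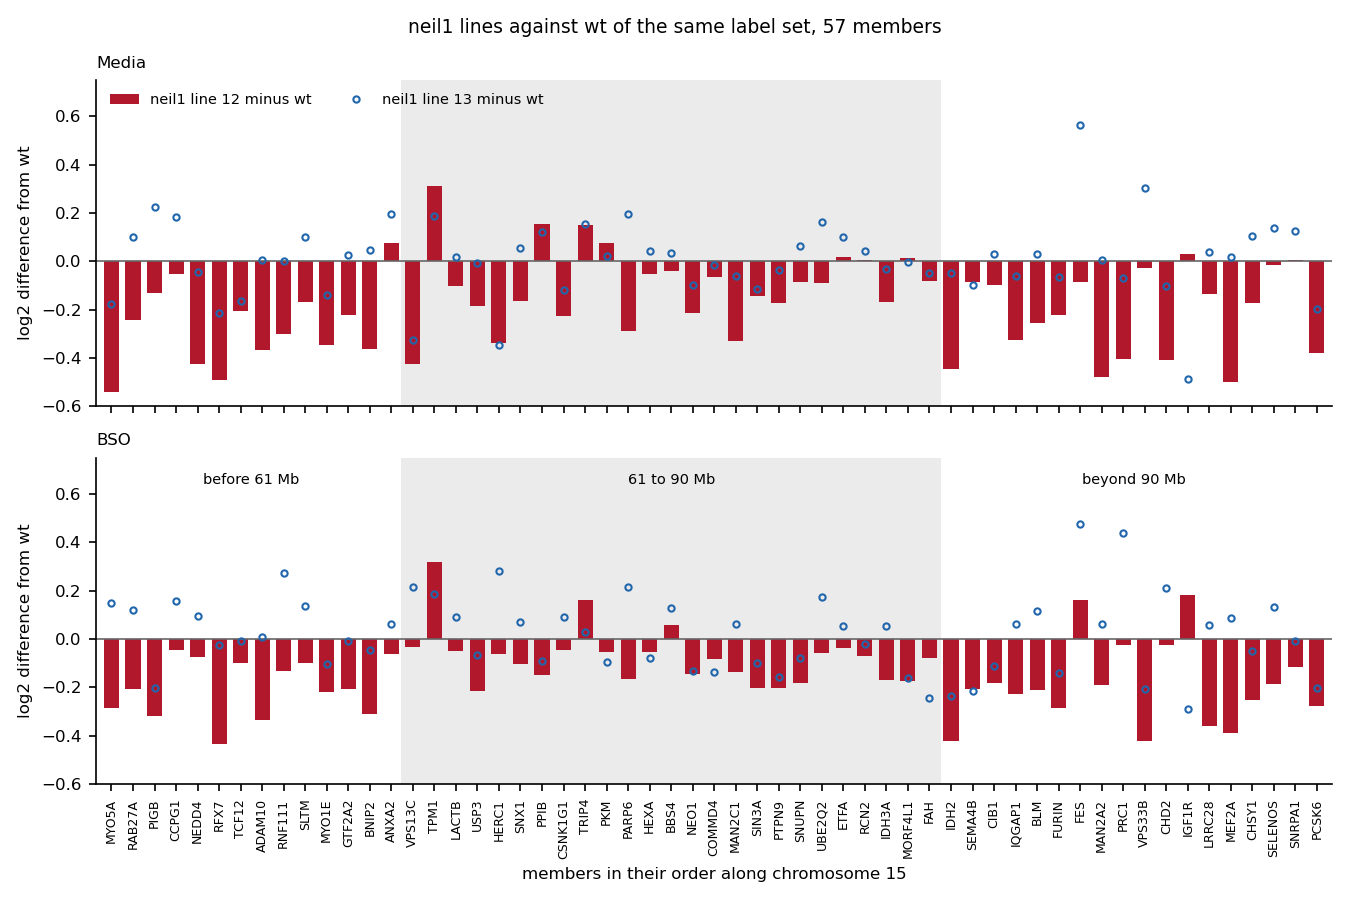
Log2 difference from wt of the same label set (y axis) for the 57 genes in their order along chromosome 15 (x axis), in media (top) and with BSO (bottom). Bars are neil1 line 12 (1 library per treatment), open circles neil1 line 13 (mean of 2 libraries), and the grey band marks genes starting between 61 and 90 Mb. The bars on either side of the band reach lower than most of those inside it, where the medians are -0.089 in media and -0.079 with BSO.

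The lowest values in media belonged to MYO5A, RFX7 and MEF2A, all outside the stretch. MYO5A, a myosin motor that moves vesicles along actin, had 2579 normalised reads in neil1 line 12 in media, against 4304, 3477 and 3516 in wt, a difference of -0.54. RFX7, a transcription factor of the regulatory factor X family, had 1773, against 2778, 2524 and 2202 in wt (-0.49). MEF2A, a MADS-box transcription factor, had 1114, against 1752, 1471 and 1522 in wt (-0.50). In all of them the line 12 library lay below the 3 wt libraries, and the 2 libraries of line 13, at 3690 and 2974 for MYO5A, 2206 and 2090 for RFX7 and 1703 and 1500 for MEF2A, lay above line 12. Lower values in media were not particular to neil1 line 12, since MYO5A and RFX7 were also below wt in neil2 line 11. RFX7 was below wt in neil2 line 12 as well, with the values given further on.

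With BSO the lowest differences belonged to RFX7, IDH2 and VPS33B. RFX7 had 1477 normalised reads in neil1 line 12 with BSO, against 2007, 2004 and 1977 in wt (-0.43). IDH2, the mitochondrial NADP-dependent isocitrate dehydrogenase, had 1745, against 2278, 2354 and 2391 in wt (-0.42), and 1466 in media, against 1957, 1979 and 2058 in wt (-0.45). VPS33B, a protein of vesicle tethering, had 70.8 with BSO, against 93.4, 111 and 83.2 in wt (-0.42), but 83.6 in media, against 87.2, 76.2 and 93.3 in wt (-0.03). RFX7 and IDH2 were thus below every wt library in both treatments, and VPS33B only with BSO.

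A few genes went the other way. TPM1, which codes for a tropomyosin of actin filaments, had 12017 normalised reads in neil1 line 12 in media, against 10352, 9412 and 9285 in wt (0.31), and 13649 with BSO, against 12173, 10474 and 10297 in wt (0.32). PPIB, a cyclophilin of the endoplasmic reticulum, and TRIP4, a transcriptional coactivator, each differed by 0.15 in media. With BSO, IGF1R, the receptor for insulin-like growth factor, differed by 0.18, and FES, a tyrosine kinase, and TRIP4 each by 0.16. TPM1, TRIP4 and IGF1R were the 3 genes not below wt in either treatment.

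Grouped by what the proteins do, genes of every group had differences below 0. In vesicle and membrane traffic, 8 of 8 genes were below wt in media and 7 with BSO, with medians of -0.11 and -0.14. The 5 genes of the cytoskeleton had medians of -0.33 and -0.06, with 3 and 4 below wt. All 5 genes of the ubiquitin system were below wt in both treatments, with medians of -0.30 and -0.07, and NEDD4, a ubiquitin ligase, differed by -0.43 in media and -0.07 with BSO. Of 10 genes of protein processing and glycans, 8 and 10 were below wt, with medians of -0.20 and -0.22. ADAM10, a membrane protease that sheds ectodomains, differed by -0.37 in media and -0.33 with BSO. Of 13 genes of transcription, RNA and DNA, 10 and 12 were below wt, with medians of -0.20 and -0.17, and BLM, a DNA helicase, differed by -0.26 and -0.21. Of 6 metabolic genes, 4 and 6 were below wt (medians -0.09 and -0.07), and of 10 genes of signalling and other roles, 9 and 8 were (medians -0.12 and -0.16).

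Other tested genes of the chromosome had the same layout in the same 2 libraries of line 12. The 54 other tested genes that start between 45 and 61 Mb had medians of -0.31 in media and -0.27 with BSO, and 46 of them were below wt in each treatment. The 183 other genes between 61 and 90 Mb had medians of -0.11 in both. The 25 others beyond 90 Mb had medians of -0.16 and -0.22, with 22 below wt in each. The 133 tested genes of chromosome 15 before 45 Mb had medians of 0.0057 and 0.018, and the 12905 tested genes of other chromosomes 0.032 and 0.017. These values come from the contrast and libraries the 57 genes were picked on, so they are no separate support and are also given with no test. The cut at 45 Mb was not planned and lies where the values of line 12 change.

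The other libraries lay closer to wt in these segments. For the 68 tested genes between 45 and 61 Mb, the median difference was -0.30 in the media library and -0.25 in the BSO library of line 12, -0.082 to 0.091 in the 26 libraries of the other knockout lines, and -0.11 to 0.075 in the 14 wt libraries. For the 208 genes between 61 and 90 Mb it was -0.10 and -0.11 in line 12, -0.027 to 0.074 in the other knockout libraries and -0.030 to 0.024 in wt. For the 43 genes beyond 90 Mb it was -0.17 and -0.21 in line 12, -0.047 to 0.074 in the other knockout libraries and -0.038 to 0.053 in wt. Line 12 thus lay below all 40 other libraries in each of these segments and among them before 45 Mb. These sets hold the genes picked because line 12 was lower there, and the cut at 45 Mb was set where line 12 changes. The order of the libraries is therefore a description with no test. Without the picked genes, line 12 was at -0.31, -0.11 and -0.16 in media and -0.27, -0.11 and -0.22 with BSO. The lowest other library was then at -0.089, -0.029 and -0.063 in these segments.

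**Figure D2:**
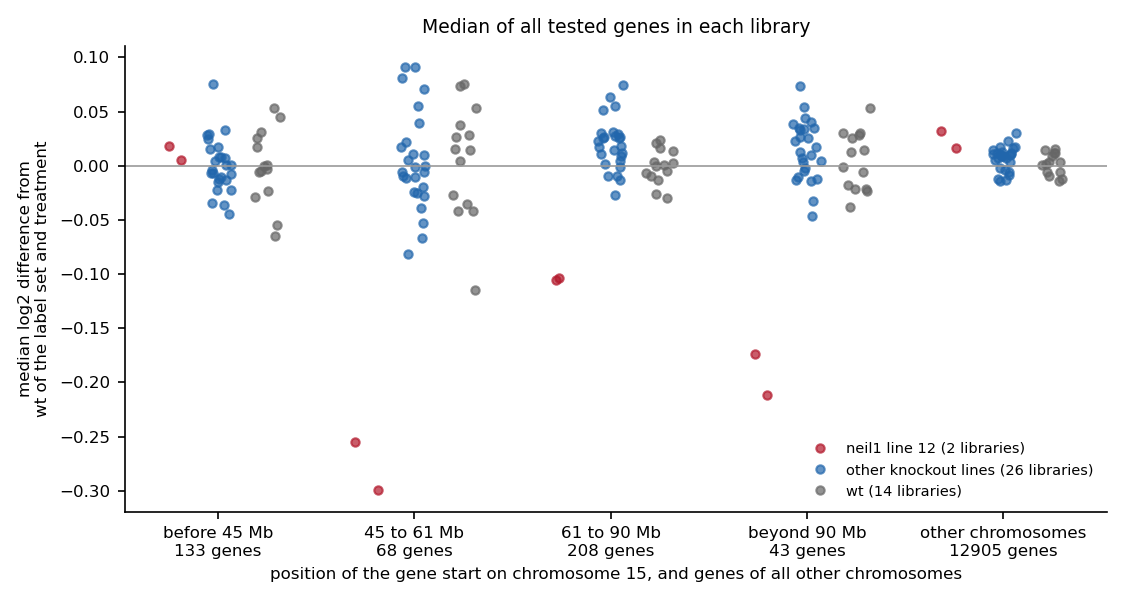
Median log2 difference from wt of the same label set and treatment (y axis) over all tested genes of each segment of chromosome 15 and of all other chromosomes (x axis), with 1 point per library and the 42 libraries split into neil1 line 12, other knockout lines and wt. The 2 points of line 12 sit at -0.30 and -0.25 between 45 and 61 Mb, near -0.10 between 61 and 90 Mb, and near 0 before 45 Mb and on other chromosomes.

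The lower side began within a short distance. In bins of 5 Mb, the median of line 12 was 0.016 in media and 0.0015 with BSO from 40 to 45 Mb (75 genes), -0.33 and -0.29 from 45 to 50 Mb (19 genes), -0.34 and -0.28 from 50 to 55 Mb (20 genes), and -0.23 and -0.22 from 55 to 60 Mb (26 genes). In the 6 bins from 60 to 90 Mb it was -0.18, -0.13, -0.07, -0.07, -0.14 and -0.15 in media and -0.07, -0.12, -0.13, -0.11, -0.06 and -0.07 with BSO, in order along the chromosome (18 to 44 genes each). In the 3 bins from 90 to 105 Mb it was -0.16, -0.19 and -0.23 in media and -0.21, -0.23 and -0.26 with BSO (23, 10 and 10 genes). In media the bins at either side of 90 Mb, at -0.15 and -0.16, thus lay close together and that from 60 to 65 Mb lay lower than both, while with BSO the bins from 60 to 90 Mb lay above all 3 beyond. In running windows of 7 neighbouring tested genes, 43 of 62 windows between 45 and 61 Mb had a median of -0.2 or lower in both treatments, against 0 of 202 windows between 61 and 90 Mb, 15 of 37 beyond 90 Mb and 0 before 45 Mb. The window nearest the centromere to do so spans gene starts from 45.4 to 48.1 Mb, before the most proximal of the 57 genes. Where the lower side begins is not resolved within that window.

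Set against the 2 libraries of line 13 of the same genotype, line 12 was lower by a like amount. The median of line 12 minus line 13 over the 57 genes was -0.17 in media and -0.17 with BSO, and by segment -0.29 and -0.22 before 61 Mb, -0.095 and -0.091 inside the stretch, and -0.27 and -0.23 beyond 90 Mb. With columns scaled to equal totals the median of line 12 against wt was -0.27 in media, where all tested genes had a median of -0.071. The distance of the 57 genes from all tested genes was -0.195 under either scaling.

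The combined exon length of genes moved with part of the media values. Of the 57 genes, 11 belong to the 1336 tested genes with the most exon sequence, 10685 bp or more. This length counts all annotated exons of a gene, so it is not the length of a single transcript. Over those 1336 genes, the median difference from wt in media was -0.11 in neil1 line 12, -0.076 in neil1 line 13, -0.13 in neil2 line 11 and -0.13 in neil2 line 12, while with BSO it was 0.011, 0.065, 0.0037 and 0.023. All of these lines share the unlettered wt libraries of their treatment, so the values are not separate observations. In wt itself, BSO minus media over these genes was -0.14 in the unlettered and 0.0075 in the lettered libraries. VPS13C differed by -0.43 in media and -0.03 with BSO in line 12, and by -0.32 and 0.22 in line 13. HERC1, a giant ubiquitin ligase, differed by -0.34 and -0.06 in line 12, and by -0.35 and 0.28 in line 13. With BSO, where these longest genes stood at 0.011 in line 12, the median of its tested genes between 45 and 61 Mb was -0.25. The longest genes and this segment are different gene sets, and the cut at 45 Mb was set where line 12 changes. The part of exon length in the values of either treatment was not tested.

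In the other knockout lines the medians over the 57 genes lay between -0.018 and 0.064 in all 14 comparisons with wt. By limma with Benjamini-Hochberg adjustment over all tested genes, neil1 line 13 had 0 of the 57 genes called in media, where 1.9% of all tested genes were called. At an unadjusted p under 0.05 there were 9, and edgeR called 1 and DESeq2 2. With equal totals 1 was called lower, and without the wt media library p1 there were 5 calls. With BSO, 2 were called, where 3.24% of all tested genes were: FAH, the last enzyme of tyrosine breakdown (-0.24 ± 0.06 SE, adjusted p = 0.0201) and IDH2 (-0.23 ± 0.05, adjusted p = 0.0107). Both calls were lost without the neil1 BSO library rep13.1, as FAH's was without the wt BSO library 1.1 or 1.3 and IDH2's without rep13.2. With equal totals 1 gene was called higher and 1 lower with BSO, and 1 gene was called without library rep13.1, wt 1.1 or wt 1.3.

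The neil2 line 11 had the most calls. In media, 8 of the 57 genes rose and 6 fell, where 18.3% of all tested genes were called, and scaling the columns to equal totals gave 6 higher and 9 lower. With BSO, 11 rose and 6 fell, where 24.9% of all tested genes were called. Without the neil2 library rep11.2 the counts were 2 in media and 9 with BSO, and without the wt media library 1.1 there were 9 in media.

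TPM1 had 14896 and 16560 normalised reads in neil2 line 11 in media, against 10352, 9412 and 9285 in wt, and 19253 and 18262 with BSO, against 12173, 10474 and 10297 in wt. The groups did not overlap in either treatment. The differences were 0.70 ± 0.14 (SE) in media and 0.78 ± 0.14 with BSO (adjusted p = 0.000776 and 0.000193). ANXA2, a calcium-dependent membrane-binding annexin, had 35316.5 and 34072 in neil2 line 11 in media, against 28036, 25417 and 28067 in wt (0.35 ± 0.07, adjusted p = 0.000448), and it also rose with BSO (0.35). FES rose by 0.69 in media and 0.61 with BSO, and MAN2C1 by 0.52 and 0.55, but these calls were lost without library rep11.2, and that of MAN2C1 in media also without the wt media library 1.1.

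Among the genes that fell in neil2 line 11, NEO1, a netrin and RGM receptor called neogenin, had 3315 and 3180 normalised reads with BSO, against 4093, 4409 and 4387 in wt (-0.40 ± 0.09, adjusted p = 0.00128). IDH2 had 1865 and 1771 with BSO, against 2278, 2354 and 2391 in wt (-0.36 ± 0.05, adjusted p = 7.05e-06). In media IDH2 had 1947 and 2051 in neil2 line 11, against 1957, 1979 and 2058 in wt, where the groups overlapped. MYO1E, a class I myosin, fell by 0.43 in media and 0.36 with BSO, and MYO5A by 0.53, HERC1 by 0.49 and RFX7 by 0.41 in media. The calls of MYO1E in both treatments and of MYO5A, HERC1 and RFX7 in media were lost without library rep11.2.

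Other genes of neil2 line 11 were called as well. In media PARP6 (0.31), PPIB (0.25), CIB1, a calcium- and integrin-binding protein (0.25), and MAN2A2 (0.23) rose, and NEO1 (-0.36) and TCF12 (-0.22) fell. With BSO LACTB (0.43), PARP6 (0.37), RNF111, a ubiquitin ligase (0.29), SELENOS (0.26), IQGAP1 (0.25), UBE2Q2 (0.25) and MAN2A2 (0.22) rose, and SEMA4B, a semaphorin (-0.30), PTPN9, a tyrosine phosphatase (-0.26), and CHSY1, a chondroitin synthase (-0.23), fell. Those of SELENOS and SEMA4B held without any one library, and each of the others was lost without at least 1. In all but LACTB, IQGAP1 and UBE2Q2, which needed rep11.1, library rep11.2 was among those needed.

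The neil2 line 12, with 1 library per treatment, had 3 genes higher and 1 lower in media, where 2.85% of all tested genes were called, and 1 higher with BSO, where 2.69% were. Its lone libraries have no spread of their own and were taken to vary like those of the other groups, so these p-values rest on that assumption. SELENOS, a selenoprotein of the endoplasmic reticulum membrane, had 1793 normalised reads in media, against 1340, 1296 and 1445 in wt (0.40 ± 0.09, adjusted p = 0.00738). RCN2, a calcium-binding protein of the same compartment, had 11353, against 8871, 9047 and 8495 in wt (0.37 ± 0.09, adjusted p = 0.0164). PPIB was 0.31 higher and RFX7 0.41 lower, and both calls were lost without the wt media library 1.1 or 1.3. The count in media was 2 without either. With BSO, UBE2Q2, a ubiquitin-conjugating enzyme, had 3624, against 2828, 2606 and 2616 in wt (0.43 ± 0.09, adjusted p = 0.00414). The count with BSO was 2 without the wt BSO library p1.

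In neil3 line 1, 2 of the 57 genes fell, the same 2 in media and with BSO, where 3.72% and 3.25% of all tested genes were called. In media edgeR and limma with equal totals each called 1 gene higher and 2 lower, and DESeq2 called 1 higher and 3 lower. NEO1 had 1807 and 1843 normalised reads in neil3 line 1 in media, against 3607, 3609, 3734 and 3659 in wt, and 2035 and 2028 with BSO, against 4260, 3627, 4255 and 3962 in wt. FES had 77.5 and 44.95 in media, against 181.3, 151.9, 223.6 and 221.5 in wt, and 76.6 and 66.7 with BSO, against 244.8, 227.7, 231.5 and 221 in wt. For both genes every library of neil3 line 1 lay below every wt library. The differences were -1.001 ± 0.08 (SE) and -0.98 ± 0.08 for NEO1 and -1.69 ± 0.16 and -1.68 ± 0.16 for FES, in media and with BSO (adjusted p = 4.56e-10, 8e-10, 3.04e-09 and 3.73e-09), and they held without any one library.

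The neighbours of these genes gave no calls, but they are few. Of all tested genes, 3.72% were called in neil3 line 1 in media and 3.25% with BSO. The lack of a call among so few genes therefore says little. None of the 3 other tested genes that start within 0.5 Mb of NEO1 was called in neil3 line 1 in either treatment, and their differences ran from 0.06 to 0.48 in media and from -0.11 to 0.03 with BSO. None of the 10 within 0.5 Mb of FES was called, with differences from -0.20 to 0.10 in media and from -0.17 to 0.14 with BSO. These include FURIN, the proprotein convertase gene directly upstream of FES, at -0.20 in media.

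The other neil3 line did not share these values. NEO1 had 4018 and 3871 normalised reads in neil3 line 2 in media and FES 224.1 and 215.7, and neither was called against wt. Line 2 had 0 of the 57 genes called in media, where 2.54% of all tested genes were, with 4 at an unadjusted p under 0.05 and 0 by edgeR or DESeq2. With BSO it had 1, IDH2 (0.22 ± 0.05, adjusted p = 0.0109), where 2.22% were, and that call was lost without either library of line 2. Line 1 set against line 2 in the same fit gave -1.11 ± 0.10 for NEO1 and -1.88 ± 0.18 for FES in media (adjusted p = 9.22e-10 and 5.41e-09), where 4.67% of all tested genes differed, and -1.02 ± 0.10 and -1.77 ± 0.18 with BSO (adjusted p = 6.61e-09 and 1.84e-08), where 4.77% differed. ANXA2 (0.28) and FURIN (-0.25) also differed in media and FAH (0.23) with BSO. The calls of ANXA2 and FAH were lost without any of the 4 neil3 libraries of their treatment and that of FURIN without 1A or 2B, which left 2 calls in media. With equal totals 0 genes were higher and 3 lower with BSO.

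**Figure D3:**
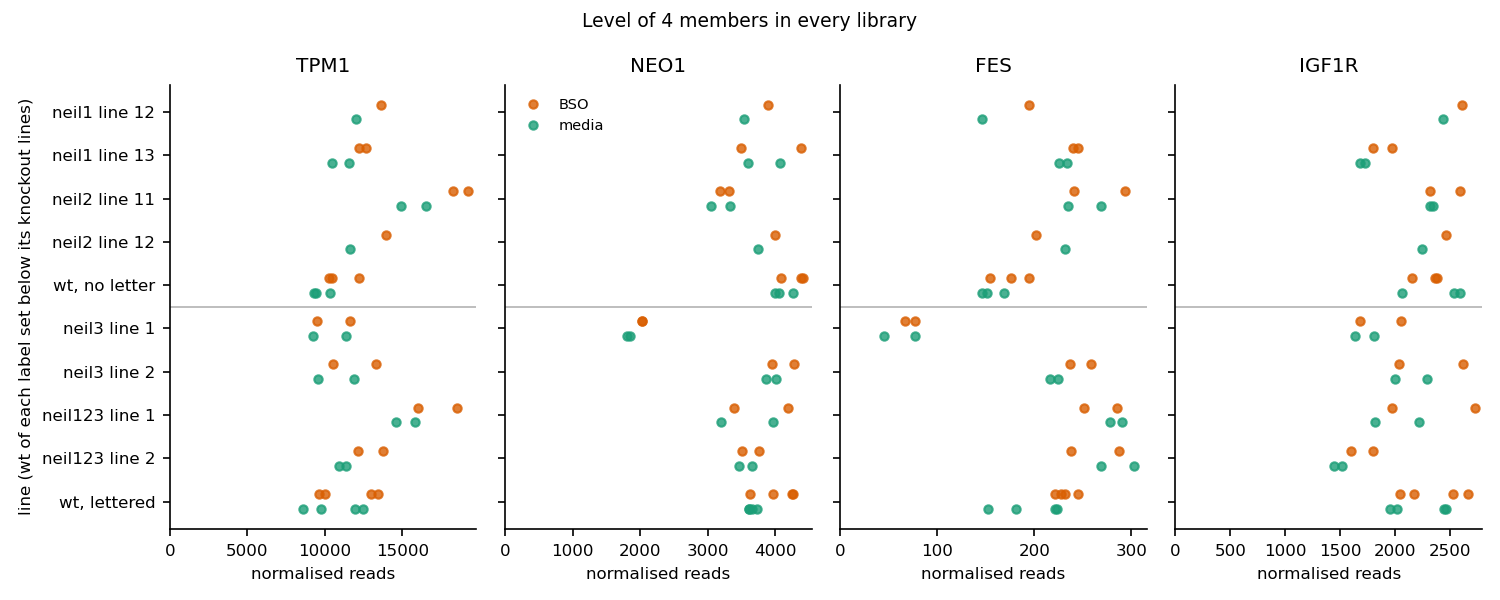
Normalised reads (x axes, from 0) of TPM1, NEO1, FES and IGF1R in every library, with lines down the page, wt of each label set below its knockout lines, and BSO and media in separate colours. NEO1 and FES of neil3 line 1 lie apart from all other lines, at 1807 to 2035 and at 44.95 to 77.5, and TPM1 is highest in neil2 line 11 and neil123 line 1.

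In neil123 line 1, 4 genes rose and 2 fell in media, where 8.07% of all tested genes were called, and 5 rose and 2 fell with BSO, where 10.6% were. With equal totals 3 rose and 2 fell with BSO. Without the neil123 library 1A the counts were 0 in media and 1 with BSO, without 1B they were 2 and 3, and without the wt media library 1.1B 3 in media. TPM1 had 15795 and 14586 normalised reads in neil123 line 1 in media, against 11943, 8612, 12452 and 9740 in wt (0.52 ± 0.14, adjusted p = 0.0123), and 18507 and 16038 with BSO, against 12970.5, 9602, 13439.9 and 9982 in wt (0.60 ± 0.14, adjusted p = 0.0034). LACTB, a serine protease of mitochondria, had 1482 and 1508 in media, against 1247, 1004, 1354 and 1041 in wt (0.38), and 1704 and 1564 with BSO, against 1197, 1073, 1279 and 1032 in wt (0.52). In both genes the groups did not overlap in either treatment. The wt libraries ending in A lay above those ending in B for both genes in each treatment. The fit had no term for the letter. The calls of TPM1, LACTB and ANXA2 were lost without library 1A of their treatment. In media those of TPM1 and LACTB were also lost without 1B or the wt library 1.1B, and LACTB's without the wt library 1.3B. ANXA2 also rose (0.27 in media and 0.33 with BSO), as did ETFA, a subunit of the electron transfer flavoprotein, with BSO (0.21), and MYO1E fell (-0.36 and -0.37). The calls of MYO1E were lost without 1A or 1B and that of ETFA without 1B or the wt library 1.1A or 1.3B.

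TPM1 and LACTB have close neighbours that moved with them in 2 lines. Of the 5 other tested genes that start within 0.5 Mb of TPM1, APH1B, LACTB and RAB8B were called higher in neil123 line 1 in both treatments and in neil2 line 11 with BSO, and APH1B also in neil2 line 11 in media. APH1B, a subunit of gamma-secretase, differed by 0.51 and 0.55 in neil2 line 11 and by 0.44 and 0.52 in neil123 line 1, in media and with BSO. The lowest neighbour, RPS27L in neil2 line 11 and USP3 in neil123 line 1, differed by -0.10 and -0.04 and by -0.09 and 0.05.

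In neil123 line 2, 3 genes rose and 3 fell in media, where 8.07% of all tested genes were called, and 2 rose and 4 fell with BSO, where 8.99% were. With equal totals 3 rose and 3 fell with BSO. The counts were 1 without library 2B in either treatment, 2 without 2A with BSO, and 3 without the wt media library 1.1B or the wt BSO library 1.3A or 1.3B. IGF1R had 1520 and 1443 normalised reads in neil123 line 2 in media, against 2447, 1959, 2467 and 2018 in wt (-0.58 ± 0.13, adjusted p = 0.00268), and 1801 and 1600 with BSO, against 2533, 2045, 2670 and 2177 in wt (-0.46 ± 0.13, adjusted p = 0.0172). All libraries of the line lay below all of wt, but both calls were lost without library 2B, and that with BSO also without the wt BSO library 1.1A or 1.3A. For IGF1R too, the wt libraries ending in A lay above those ending in B in each treatment. Of the 2 other tested genes within 0.5 Mb of IGF1R, TTC23 was called higher with BSO (0.53). IDH2 rose (0.23) and MYO1E fell (-0.31) in media, PPIB rose (0.22) and NEDD4 (-0.25) and HEXA (-0.21) fell with BSO, and all of these calls were lost without library 2B, IDH2 by that library alone and the others by 3 or more other libraries as well.

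TCF12, an E-protein transcription factor, fell in both neil123 lines. It had 2870 and 2924 normalised reads in line 1 and 2747 and 2996 in line 2 in media, against 3442, 3410, 3414 and 3671 in wt, with no overlap. The differences were -0.27 ± 0.06 and -0.28 ± 0.06 in media and -0.20 ± 0.06 and -0.23 ± 0.06 with BSO, in line 1 and line 2 (adjusted p = 0.00189, 0.00106, 0.0222 and 0.00816). The 2 lines share their wt libraries. Each call was lost without library 1A or 2A of its line, and that of line 1 with BSO also without 1B or the wt library 1.3A. SELENOS rose in line 2 in both treatments (0.21 and 0.26) and in line 1 with BSO (0.20), and FES rose in media in line 1 (0.56) and line 2 (0.57). Each of these calls was lost without at least 2 single libraries.

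Line 1 set against line 2 in neil123 gave 0 of the 57 genes in media and 0 with BSO by limma, where 1.07% and 0.858% of all tested genes differed. At an unadjusted p under 0.05 there were 7 and 6, and edgeR also called 0 in each. In neil2, line 11 set against line 12 gave 1 gene in media, RCN2 (-0.33 ± 0.09, adjusted p = 0.0295, with the spread of line 12 again taken from the other groups), where 5.07% of all tested genes differed, and 0 with BSO, where 6.13% did, with 11 at an unadjusted p under 0.05 and 0 by edgeR or DESeq2. The call of RCN2 was lost without either library of line 11, and without rep11.2 there were 0 genes in media. Without library rep11.1 there was 1 gene with BSO, and with equal totals there were 2 in media, both lower in line 11.

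BSO against media in wt moved single genes up and down. Of the 57 genes, 9 rose and 6 fell, where 18.7% of all tested genes were called. Scaling the columns to equal totals gave 7 higher and 9 lower, and with the pairing of same-numbered BSO and media libraries as a block 17 rose and 11 fell. HEXA, the alpha subunit of the lysosomal beta-hexosaminidase, ran from 1640 over a median of 1729 to 1830 normalised reads in the 7 wt libraries with BSO, against 1237, 1336 and 1435 in media. The groups did not overlap, and the difference was 0.37 ± 0.04 (SE; adjusted p = 1.36e-07), at 0.37 in each label set. CCPG1, a receptor for autophagy of the endoplasmic reticulum, ran from 135.7 over 148.6 to 211.1 with BSO, against 89.6, 114.3 and 150.6 in media (0.42 ± 0.09, adjusted p = 0.00101), and the ranges overlapped. IDH2 rose by 0.18 ± 0.03 (adjusted p = 0.000172).

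The other wt genes that rose were LRRC28 (0.21), COMMD4 (0.19), a COMM domain protein, ANXA2 (0.16), NEDD4 (0.15), SNUPN (0.14), an import adaptor for small nuclear RNPs, and PKM (0.09), the muscle-type pyruvate kinase. Those that fell were PRC1 (-0.28), a microtubule bundler of cell division, HERC1 (-0.26), RFX7 (-0.22), USP3 (-0.18), a histone deubiquitinase, CSNK1G1 (-0.17), a casein kinase 1, and IDH3A (-0.12), a subunit of the NAD-dependent isocitrate dehydrogenase. Of the 15 genes, 14 had the same sign in both label sets. HERC1 did not: its difference was -0.68 in the unlettered and 0.16 in the lettered wt libraries. NEDD4 was at 0.014 in the unlettered and 0.29 in the lettered libraries, and PKM at 0.18 and 0.0056. The 1336 tested genes with the most exon sequence had a median BSO difference of -0.14 in the unlettered and 0.0075 in the lettered wt libraries. The calls of IDH3A and PKM were each lost without any of 9 single libraries and that of NEDD4 without any of 7, that of LRRC28 without the wt BSO library 1.3 and that of PRC1 without the wt media library 1.1.

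**Figure D4:**
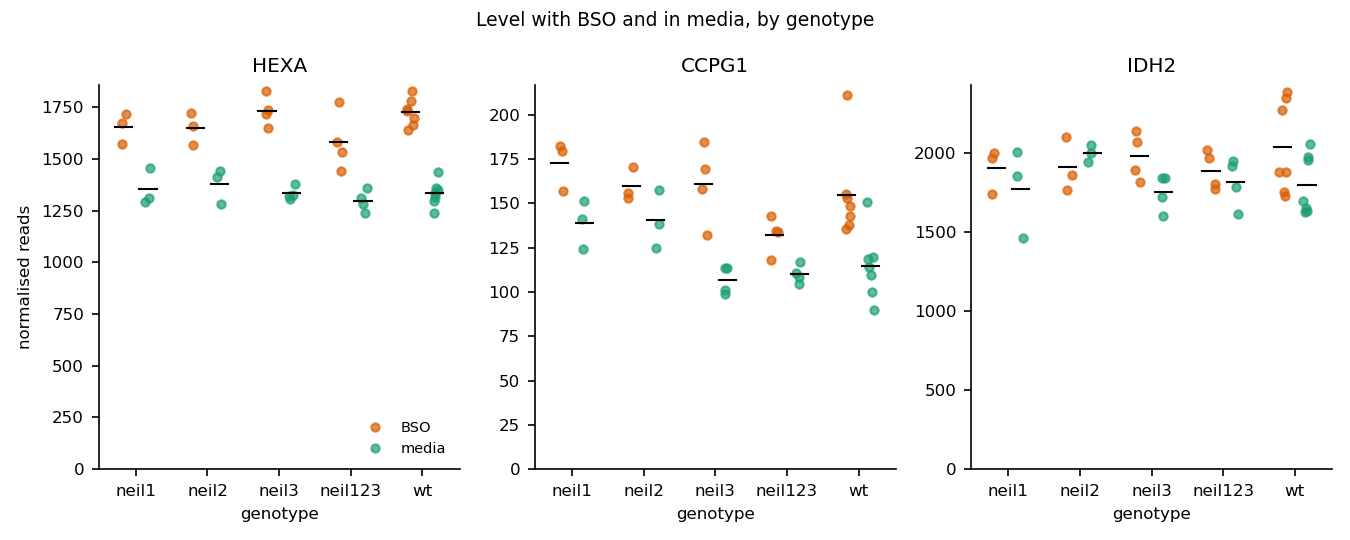
Normalised reads (y axes, from 0) of HEXA, CCPG1 and IDH2 in every library by genotype, with BSO left of media, 1 point per library and a black line at the mean. HEXA with BSO lies above media within every genotype, with BSO libraries between 1441 and 1830 and media libraries between 1237 and 1458, while the ranges of CCPG1 and IDH2 overlap in wt.

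In neil3 cells, 5 genes rose with BSO and 0 fell, where 8.74% of all tested genes were called, and 9 rose and 5 fell with the pairing as a block. With equal totals 5 rose and 1 fell. DESeq2 called 6 higher and 2 lower, and limma without the neil3 media library 2B called 8 genes. CCPG1 had 158.3, 132.4, 184.5 and 169.7 normalised reads with BSO, against 113.7, 98.9, 113.6 and 101 in media, with no overlap (0.58 ± 0.11, adjusted p = 0.000982). HEXA had 1827, 1648, 1715 and 1738 with BSO, against 1380, 1328, 1307 and 1322 in media (0.38 ± 0.05, adjusted p = 2.01e-05). CHD2, a chromatin remodeller, rose by 0.24, NEDD4 by 0.27 and IDH2 by 0.17. The call of NEDD4 was lost without the neil3 BSO library 1A and that of IDH2 without the neil3 media library 1A.

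The other genotypes had few calls. In neil1, HEXA rose (0.31 ± 0.07, adjusted p = 0.00728), where 2.17% of all tested genes were called. It had 1674, 1572 and 1718 normalised reads with BSO, against 1294, 1309 and 1458 in media, with no overlap. The call was lost without either library of line 12, and without line 13. In neil123, HEXA (0.28 ± 0.05, adjusted p = 0.00188) and UBE2Q2 (0.22 ± 0.06, adjusted p = 0.0246) rose, where 2.81% were called. That of UBE2Q2 was lost without any of 7 single libraries, which left 1 call. In neil2, 0 of the 57 genes were called by limma, where 0.712% were, with 7 at an unadjusted p under 0.05, 0 by edgeR and 2 by DESeq2. HEXA had 1567, 1724 and 1659 in neil2 with BSO, against 1280, 1442 and 1414 in media, with no overlap. With the pairing as a block, 7 genes rose and 2 fell in neil1, 5 rose in neil2, and 4 rose and 1 fell in neil123.

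The promoters of CCPG1 and COMMD4 are shown because CCPG1 had the largest rise with BSO and COMMD4 was the 1 gene among those that rose in wt whose promoter held a searched motif. Both are RefSeq sequences of GRCh38.p14, from 250 bases before to 50 after the start of the gene, with CACGTG in capitals. CCPG1 lies at chr15:55408310-55408609 on the minus strand and COMMD4 at chr15:75335813-75336112 on the plus strand.
CCPG1: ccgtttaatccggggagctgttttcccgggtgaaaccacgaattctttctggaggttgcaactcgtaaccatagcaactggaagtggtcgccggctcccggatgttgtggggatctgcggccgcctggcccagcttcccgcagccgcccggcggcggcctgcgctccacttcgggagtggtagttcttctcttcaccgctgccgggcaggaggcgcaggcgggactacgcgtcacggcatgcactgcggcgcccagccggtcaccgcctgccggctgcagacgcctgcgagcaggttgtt
COMMD4: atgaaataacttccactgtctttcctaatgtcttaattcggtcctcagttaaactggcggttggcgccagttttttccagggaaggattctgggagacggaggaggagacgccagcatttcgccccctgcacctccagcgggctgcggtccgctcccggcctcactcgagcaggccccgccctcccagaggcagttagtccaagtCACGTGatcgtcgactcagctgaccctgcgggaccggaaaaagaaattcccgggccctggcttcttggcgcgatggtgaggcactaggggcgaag

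The motifs searched on both strands were CACGTG, an E-box that reads the same on either strand, and TGATGCAA, an element for C/EBP and ATF4 dimers, with TTGCATCA as its other strand. They do not overlap each other. Of the 57 genes, 55 had an entry, and HEXA and VPS33B did not. CACGTG was found in 7 of these genes, namely ADAM10, CHSY1, COMMD4, PARP6, RFX7, SELENOS and TCF12, and in 7.26% of all 35116 promoters. TGATGCAA was found in 0 of them and in 0.866% of all promoters. A match or its lack describes these letters only.

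The BSO difference of each knockout genotype was then set against that of wt of its own label set. By limma, 0 of the 57 genes were called in each of the 4 genotypes, where 0% of all tested genes were called for neil1, 0.0209% for neil2, 0% for neil3 and 0% for neil123. At an unadjusted p under 0.05 there were 7, 9, 0 and 2 of the 57 genes, edgeR called 0 in each, and DESeq2 1, for neil2. The pairing as a block gave 1 for neil1 and 8 for neil2 and 0 for the other genotypes. Without the wt media library p1, 2 genes were called for neil1 and 5 for neil2. A p that misses the threshold does not show that the genotypes respond alike. For IDH2 in neil2 the difference of differences was -0.26 ± 0.07 (SE, adjusted p = 0.168) and for CHD2 in neil1 0.35 ± 0.09 (adjusted p = 0.509).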

How the data were processed

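RNA of 42 HAP1 libraries was sequenced from total RNA, per the labels. The submitters' processing notes name Trim Galore, HISAT2, SAMtools, featureCounts and DESeq2 with GRCh38, and versions and the strand setting were not given in the sources used here. The deposited values are signal values, namely reads per gene that the authors divided by a size factor per library. Dividing by the value of 1 read (0.941 to 1.04) gave whole reads for 100% of values within a relative tolerance of 1e-06. Entries without a gene symbol held 0.868 to 1.25% of the reads and were left out.

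Values were taken as log2(value + 1), so differences of low genes are understated. The test was limma 3.58.1 (R 4.3.3) with a mean trend, fitted once over all 42 libraries and the 14331 named genes whose mean reached 10, with 20 terms for line, treatment and label set and 22 residual degrees of freedom. A call is a Benjamini-Hochberg adjusted p under 0.05 over all tested genes. On the recovered reads, edgeR 4.0.16 called 2784 and DESeq2 1.42.0 called 2767 genes for BSO in wt, against 2685 by limma. The fit was tried on simulated data with changes in neil3 line 1 in media only and no differences between label sets or other lines. Those data do not cover lines of 1 library or paired libraries.

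The 57 genes, their role groups and the lists were chosen with earlier results of these data known. Values were given for the 4 genes with the highest mean in each segment, up to 6 with the largest change among those called in a comparison, the 3 lowest and 3 highest of neil1 line 12, and NEIL1. Other called genes are listed, and their examples and the neighbours of called genes were chosen after their values were seen. Alternatives were the pseudocount, the filter, the scaling, the tool, a shared label-set term, a replicate block and leaving out each library. Leaving out neil1 or neil2 lines, the segments of 5 Mb and the contrasts between lines were chosen after seeing the data. The cut at 45 Mb was also not planned. Same-numbered BSO and media libraries deviated together from the mean of their genotype and treatment in all 21 pairs (r = 0.375 to 0.849). Libraries that share a line or label set would also do so, and differently numbered libraries were not compared. These values therefore do not show that the numbers pair the samples.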

Additional observations from a re-analysis of the deposited data

Results flagged for a closer look

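In 4 of 192 groups of 4 or 7 libraries examined, 1 library stood far from the others, by its gap to the next relative to the range. The groups of 7 are wt and hold both label sets, and those of 4 hold both lines of a genotype. MYO5A in wt in media reached 4304 normalised reads in library 1.1, where the next wt library had 3516. CCPG1 in wt with BSO reached 211.1 in library 1.3, with the next at 155.4. HERC1 in neil3 with BSO reached 3657 in library 1A, with the next at 3299.5. MORF4L1 in neil123 with BSO reached 15425 in library 1A, with the next at 14150.2.

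Lines of the same genotype differed by limma with adjusted p under 0.05 in the following genes. In neil3, line 1 minus line 2 was -1.88 for FES, -1.11 for NEO1, 0.28 for ANXA2 and -0.25 for FURIN in media, and -1.77 for FES, -1.02 for NEO1 and 0.23 for FAH with BSO. In neil2, line 11 minus line 12 was -0.33 for RCN2 in media, where line 12 has 1 library and its spread was taken from the other groups.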

How the results depend on the processing

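The genes were chosen because neil1 line 12 was lower there, and the alternatives used the same libraries of that line. A kept sign is therefore no separate support for the lower values. The median of neil1 line 12 against wt kept its sign under every alternative run. With equal totals it was -0.27 in media and -0.21 with BSO, and with BSO it was -0.17 with a shared label-set term, -0.16 by edgeR, -0.16 with TMM factors and -0.17 against line 13. Leaving out 1 wt library gave -0.18 to -0.15 in media and -0.16 to -0.13 with BSO. With same-numbered libraries as a replicate block, the BSO counts were 28 in wt, 9 in neil1, 5 in neil2, 14 in neil3 and 5 in neil123, and the differences in BSO change 1 for neil1 and 8 for neil2. Without neil1 line 12 or line 13 the neil1 BSO count was 0. DESeq2 called 2 genes for BSO in neil2, 8 in neil3, 1 for the difference in neil2, 2 in neil1 line 13 in media, 2 in neil2 line 12 with BSO and 4 in neil3 line 1 in media. In neil1 line 13 in media edgeR, TMM factors, equal totals and the shared term each gave 1. The shared term gave 2 in neil2 line 12 in either treatment and 1 in neil3 line 2 in media, and equal totals gave 2 between the neil2 lines in media.

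Leaving out 1 library gave, for BSO, 11 to 16 genes in wt, 0 to 1 in neil1, 5 to 8 in neil3 and 1 to 2 in neil123. The differences in BSO change ran from 0 to 2 in neil1 and 0 to 5 in neil2. Against wt in media and with BSO, the counts ran from 0 to 5 and 1 to 3 in neil1 line 13, 2 to 18 and 9 to 17 in neil2 line 11, 2 to 4 and 1 to 2 in neil2 line 12, 0 to 7 and 1 to 6 in neil123 line 1, 1 to 7 and 1 to 6 in neil123 line 2, and 0 to 0 and 0 to 1 in neil3 line 2. Between lines they ran from 0 to 1 in neil2 in media and with BSO, 2 to 3 in neil3 in media and 2 to 3 with BSO. Of the calls of single genes, 15 of 68 against wt, 14 of 23 for BSO and 4 of 8 between lines held whichever 1 library was left out. For the 99 calls of single genes, the alternatives kept the call 1339 times, lost it 208 times and reversed it 0 times. The cause of these moves was not tested. Genes of few reads, such as FES, CCPG1 and VPS33B, carry the most counting error.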
